A study of Macaca mulatta with 4 samples.

Results

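High-scoring hotspots found in a single library were examined in DNase-seq data of rhesus macaque (Macaca mulatta) morulae, the stage at which the early embryo is a compact ball of cells. A hotspot is a stretch where DNase I cut more often than in its surroundings. The 4 hotspot lists were merged wherever hotspots overlapped or touched, which gave 222970 regions, of which 222776 lay on chromosomes 1 to 20. A member is a region on these chromosomes that is called in exactly 1 of the 4 libraries and whose highest score lies in the top 10% of that library's list but not in its top 1%. There were 2850 members among the 166929 autosomal regions called in 1 library. Members were chosen by the score and by absence from the other lists, so both are given as descriptions, with no test.

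The 2 groups differ in the origin of the embryo's genome. Androgenetic (AG) morulae, whose nuclear genome comes from sperm alone, gave AG replicates 1 and 2, and gynogenetic (GG) morulae, whose nuclear genome comes from the oocyte alone, gave GG replicates 1 and 2. All 4 libraries share the same stage and the same digestion with DNase I, at 40 U/ml for 5 min at 37 °C. The labels give neither the number of embryos in a library nor the donor animals, and nothing says that replicates came from separate cultures, so p-values measure only the spread between these libraries, which may be technical. Sequencing depth is unknown, because the lists hold positions and scores but no read counts. The files hold no gene expression, so the labelled stage could not be checked against marker genes.

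DNase I cuts where nucleosomes are displaced or loosely held, and such open sites include promoters, enhancers and sites bound by architectural proteins. In early embryos, chromatin opens progressively around the activation of the embryonic genome. Strongly open promoters tend to be found again in every sample of a tissue. Positions below refer to the rheMac8 build and are counted from 1. Regions were not matched to genes or sequences, since no annotation or genome of that build was used here.

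A score in the upper part of a list usually went with a call in other libraries, and members were the exception. The score band (top 10% without the top 1%) held 5733 regions in AG replicate 1 and 7537 in AG replicate 2, against 8240 in GG replicate 1 and 7463 in GG replicate 2. Members made up 512 of these in AG replicate 1 (8.93%) and 1221 in AG replicate 2 (16.2%), against 612 in GG replicate 1 (7.43%) and 505 in GG replicate 2 (6.77%). AG replicate 2 thus stood apart from the other 3 libraries, which lay close together, though both AG shares lay above both GG shares. Most band regions were present in all 4 lists, namely 4066 and 4761 in AG and 5396 and 5186 in GG. Here and below, a pair of values for AG or GG is that of replicates 1 and 2, in this order.

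**Figure D1:**
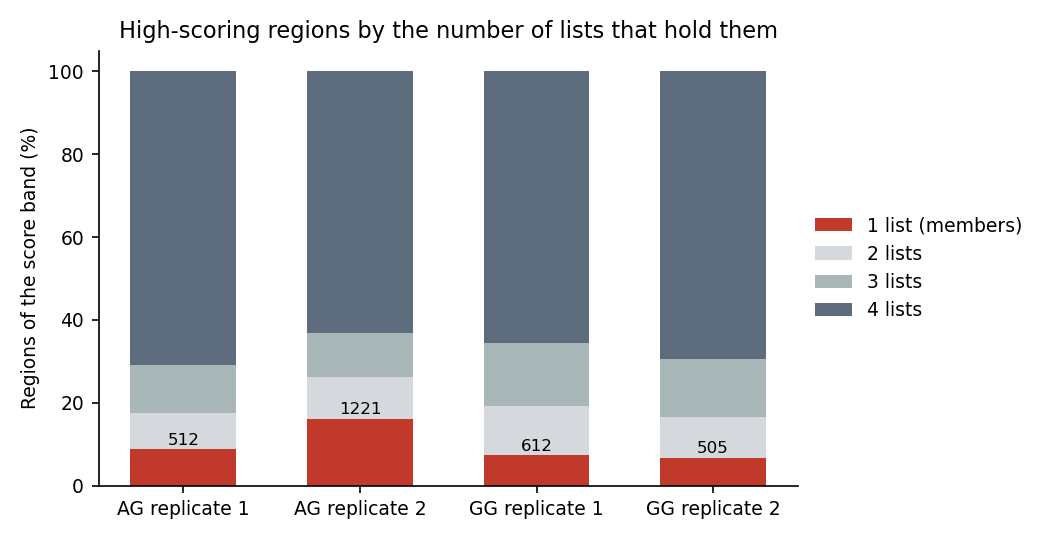
Stacked bars give, for each library, the percentage of its score band regions held by 1, 2, 3 or 4 lists. Numbers above the lowest segment count the members, and AG replicate 2, with 1221, has the tallest such segment.

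The number of members averaged 867 ± 501 in AG libraries and 559 ± 75.7 in GG libraries (SD, n = 2 each). The AG minus GG difference of 308 was smaller than the SD within AG. It was 1032.5 without AG replicate 1 and 168 without AG replicate 2, and it turned to -107.5 without GG replicate 1 and to -411 without GG replicate 2. Leaving out a library also changes which regions count as members, since regions it shared with only 1 other list then become members of that list. AG replicate 2 had the lowest threshold for the top 10% of scores, 8.69, against 9.49 in AG replicate 1, 10.1 in GG replicate 1 and 10.1 in GG replicate 2. Whether scores are comparable between lists is unknown, and the part of this threshold in the higher number of members of AG replicate 2 was not tested. When only as many top-scoring hotspots of each list were kept as the shortest list holds, AG replicate 2 still had the most members, 840, against 565 in AG replicate 1, 377 in GG replicate 1 and 358 in GG replicate 2.

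Absence from the other lists was less frequent among regions with higher scores than below the band. Below the top 10% of scores, 52.0% and 65.6% of the regions in AG and 56.9% and 54.0% in GG were called in 1 library alone. In the top 1%, the share was 15.2% and 17.3% in AG and 7.07% and 8.75% in GG. The top 1% therefore did not have a lower share than the band in any library except GG replicate 1.

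Members lay mostly in the lower part of the score band. Their median score was 10.9 in AG replicate 1, 10.1 in AG replicate 2, 11.8 in GG replicate 1 and 11.7 in GG replicate 2, while shared regions of the same band had medians of 11.2, 10.7, 12.4 and 12.2 in the same libraries. Among regions called in 1 library, values just inside and just outside the band lay close together, with regions shared between libraries left aside. In AG replicate 1 the weakest member scored 9.488 and the next such region below it 9.483, and the strongest member scored 16.18, with the next such region above it at 16.24. In AG replicate 2 the corresponding pairs were 8.695 and 8.690 at the lower edge, and 17.16 and 17.32 at the upper edge. In GG replicate 1 they were 10.139 and 10.124, and 18.78 and 18.97, and in GG replicate 2 they were 10.094 and 10.079, and 18.92 and 19.03.

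Each of the 2850 members consisted of a single hotspot, so none joined neighbouring hotspots of its own list. Together they covered 351 kb in AG replicate 1, 948 kb in AG replicate 2, 464 kb in GG replicate 1 and 331 kb in GG replicate 2. This was 0.517% and 1.12% of all covered sequence in AG and 0.454% and 0.355% in GG.

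The members with the highest scores were short in most cases. In AG replicate 1 they were chromosome 16 from 39885942 to 39886810 (869 bp, score 16.2), chromosome 1 from 201356672 to 201356717 (46 bp, score 16.2) and chromosome 14 from 79673276 to 79673546 (271 bp, score 16.03). Hotspots of other libraries lay close by these 3 regions, at 2.09 kb, 1.14 kb and 277 bp. In AG replicate 2 they were chromosome 1 from 51343168 to 51343413 (246 bp, score 17.2), chromosome 7 from 10429681 to 10431063 (1383 bp, score 17.2) and chromosome 8 from 101727684 to 101728268 (585 bp, score 17.1). The nearest hotspots of other libraries were at 1.54 kb, 17.2 kb and 11.8 kb.

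In GG replicate 1 the highest scores belonged to chromosome 19 from 17605251 to 17605390 (140 bp, score 18.8), chromosome 12 from 96593468 to 96593743 (276 bp, score 18.6) and chromosome 2 from 106729975 to 106730178 (204 bp, score 18.6). The first of these lay 308 bp from a hotspot of AG replicate 1 and 11.4 kb from the nearest one of GG replicate 2. In GG replicate 2 they belonged to chromosome 12 from 81119445 to 81119678 (234 bp, score 18.9), chromosome 12 from 17291527 to 17291920 (394 bp, score 18.9) and chromosome 11 from 56051434 to 56051719 (286 bp, score 18.9). The second of these lay 225 bp from a hotspot of GG replicate 1, and the third had nothing closer than 15541 bp in any other list. Of these 12 regions, those under 300 bp numbered 2 and 1 in AG replicates 1 and 2 and 3 and 2 in GG replicates 1 and 2.

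Members were far narrower than shared regions with scores in the same band. Their median width was 577.5 bp in AG replicate 1, 684 bp in AG replicate 2, 632 bp in GG replicate 1 and 575 bp in GG replicate 2, against 1771, 1638, 2072 and 2034 bp for the library's own highest-scoring hotspot in shared regions. The mean difference was -1262 ± 238 bp (members minus shared, SD, n = 4 libraries), with members narrower in 4 of 4 libraries. An exact two-sided sign-flip permutation test over the 4 libraries gave p = 0.125, the smallest it can give, so no comparison of this kind could pass a threshold of 0.05. Shared regions of different libraries are partly the same regions, so the 4 differences are not independent. Width and absence are also linked by construction, because a wide hotspot can overlap more hotspots of other lists.

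The width profile of members differed in shape from that of low-scoring regions called in 1 library, those below the top 10%. Hotspots under 300 bp made up 32.2% of members in AG replicate 1, 24.2% in AG replicate 2, 30.4% in GG replicate 1 and 32.9% in GG replicate 2. Among low-scoring regions called in 1 library they made up 7.73%, 7.86%, 7.56% and 7.29%, and among shared regions of the band 0.843%, 1.25%, 0.708% and 0.690%. The excess over low-scoring regions averaged 22.3 ± 4.12 percentage points (SD, n = 4 libraries, higher in 4 of 4, exact sign-flip p = 0.125). Hotspots under 100 bp took 8.95 ± 1.08% of members and 2.23 ± 0.0891% of low-scoring regions.

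Members were also more often wide. Hotspots of 1000 bp or more made up 27.5% and 31.7% of members in AG and 30.6% and 24.2% in GG. Among low-scoring regions called in 1 library the shares were 19.3% and 23.8% in AG and 21.3% and 21.2% in GG. The difference was 7.09 ± 2.78 percentage points, with members higher in 4 of 4 libraries (exact sign-flip p = 0.125). Members thus had more of both ends of the width range and fewer of the middle widths, where low-scoring regions were concentrated.

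**Figure D2:**
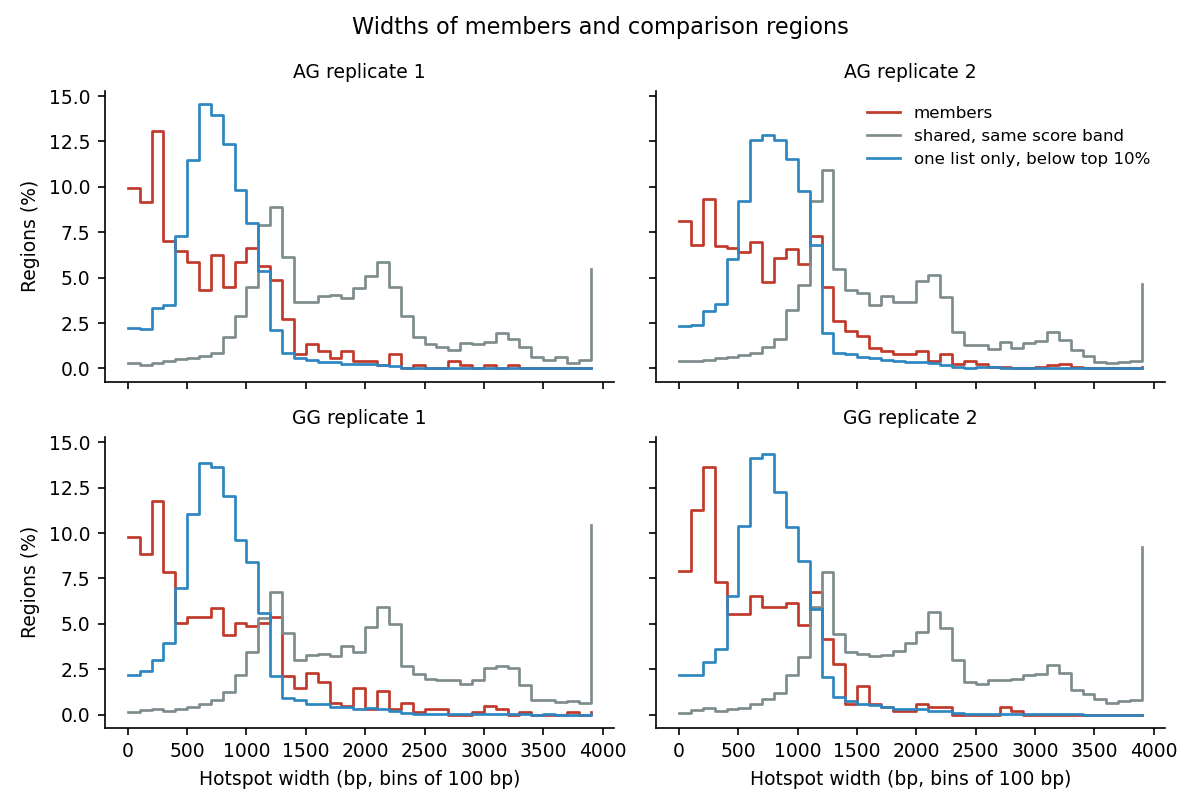
Lines give the percentage of regions in bins of 100 bp of hotspot width for members, shared regions of the same score band and low-scoring regions called in 1 list; the last bin also holds wider hotspots. In each library the members have a maximum from 200 bp to under 300 bp, while low-scoring regions of 1 list peak between 600 and 800 bp.

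The bin from 200 bp to under 300 bp held more members than any other in all 4 libraries. It took 13.1% of members in AG replicate 1, 9.34% in AG replicate 2, 11.8% in GG replicate 1 and 13.7% in GG replicate 2. The next wider bin, which starts at 300 bp, held 7.03%, 6.72%, 7.84% and 7.33%. Median width is a poor summary of this shape. The median width of members was below that of low-scoring regions by a mean of 139 ± 37.6 bp (SD, n = 4 libraries, exact sign-flip p = 0.125), but the sign turned under several settings. The difference was -304 bp with the top 5% of scores, -443 bp with the upper 50% of each list, -234 bp with lists of equal number, -66.25 bp with hotspots of at least 100 bp and -73.6 bp against the lowest 50% of each list. It was 211 bp when a library had to cover 50% of a region, 178 bp with the top 20% of scores in place of the top 10%, and 95.5 bp with hotspots of at least 300 bp only. Without AG replicate 2, GG replicate 1 and GG replicate 2 it was 1.83, 75.7 and 93.8 bp, and without AG replicate 1 it was -12.7 bp. Each time only the left-out library's partner of the same kind was positive, at 176.5, 322.5, 384 and 99 bp in this order. The libraries of the other kind stayed negative. Regions shared only with the left-out list become members of its partner by construction.

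The share of band regions that were members depended steeply on width. Of the band's hotspots under 100 bp, members made up 51 of 68 (75%) in AG replicate 1, 99 of 124 (79.8%) in AG replicate 2, 60 of 69 (87.0%) in GG replicate 1 and 40 of 46 (87.0%) in GG replicate 2. From 600 bp to under 1000 bp the shares were 25.1% and 40.7% in AG and 25.9% and 26.8% in GG. From 1000 bp to under 1500 bp they were 6.14% and 11.1% in AG and 6.21% and 5.32% in GG. At 2500 bp or more, members were 5 of 1077 and 13 of 1231 band regions in AG and 13 of 2521 and 3 of 2203 in GG.

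Low-scoring regions showed where a high score went with presence in other lists. For hotspots under 100 bp below the top 10% of scores, 84.6% and 87.3% were called in 1 library in AG and 83.9% and 86.8% in GG, close to the shares in the score band. From 1000 bp to under 1500 bp, 35.5% and 53.2% of low-scoring regions in AG and 43.5% and 39.4% in GG were called in 1 library, several times the shares in the score band. A high score therefore went with presence in another list among wide hotspots, while among the narrowest ones the shares of the 2 score classes overlapped. The classes were set by the rule, so this is a description with no test.

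**Figure D3:**
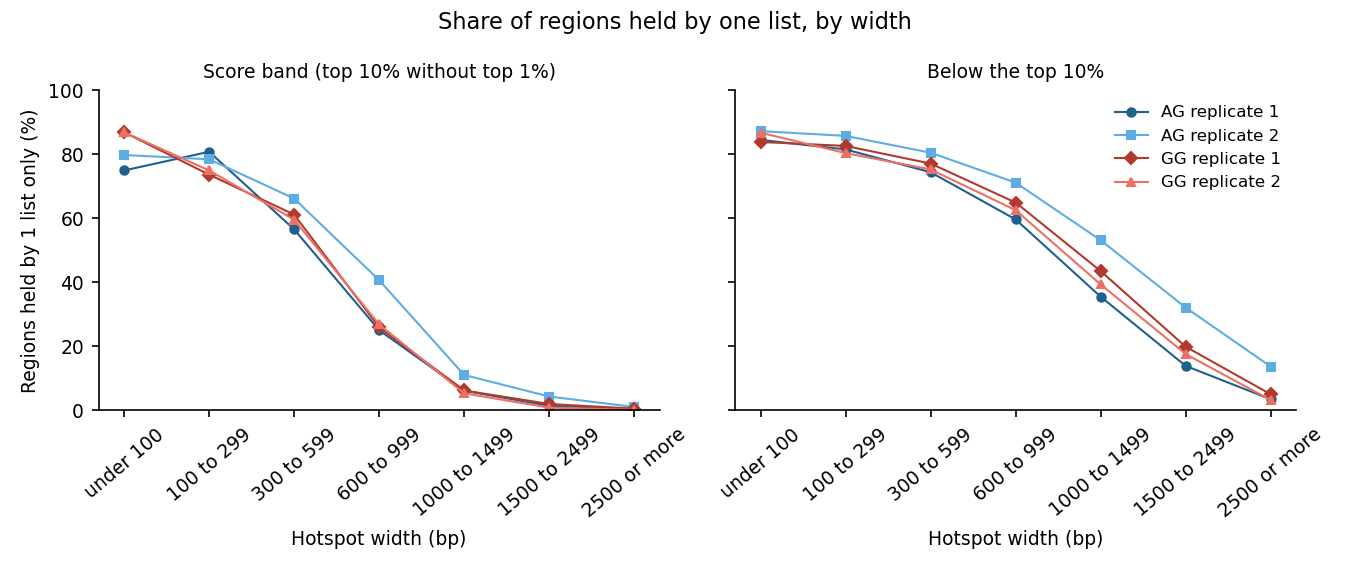
Points give the percentage of regions called in 1 list alone for each width class and library, in the score band on the left and below the top 10% of scores on the right. Under 100 bp both panels lie between 75% and 87.3%, and from 1000 bp to under 1500 bp the left panel lies between 5.32% and 11.1% and the right panel between 35.5% and 53.2%.

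Score and width were related in opposite ways inside and outside the members. Among members, narrower hotspots had slightly higher scores, with a Spearman correlation across regions of -0.178 in AG replicate 1, -0.230 in AG replicate 2, -0.236 in GG replicate 1 and -0.180 in GG replicate 2. Shared regions of the same band gave 0.119, 0.165, 0.164 and 0.142 in the same libraries. Regions of a list share that library's depth and caller settings and are not independent, so these correlations are descriptions. By width class, members under 300 bp had a median score of 11.3 and 10.8 in AG and 12.6 and 12.3 in GG, while members of 1000 bp or more had 10.4 and 9.72 in AG and 11.1 and 11.0 in GG.

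The widest members were chromosome 14 from 32416010 to 32419231 (3222 bp) and chromosome 7 from 53790106 to 53793159 (3054 bp) in AG replicate 1, with hotspots of other libraries 389 and 105 bp away. In AG replicate 2 they were chromosome 10 from 17359768 to 17363818 (4051 bp), with nothing in another list within 11.7 kb, and chromosome 11 from 106222961 to 106226325 (3365 bp), with a neighbour at 3.15 kb. In GG replicate 1 chromosome 7 from 51007237 to 51011258 (4022 bp) and chromosome 15 from 89353704 to 89357424 (3721 bp) were 11.7 and 36.3 kb from any other list. In GG replicate 2 chromosome 2 from 122043730 to 122046538 (2809 bp) had hotspots of all 3 other libraries within 0.231 kb, and chromosome 3 from 48458993 to 48461755 (2763 bp) had one at 1.12 kb. The widest members thus included both isolated regions and regions flanked closely by calls of other libraries.

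Most members had a hotspot of another library within 10 kb (78.3 ± 3.22%, SD, n = 4 libraries). So did most low-scoring regions called in 1 library (76.0 ± 3.74%). For members the median distance to the nearest such hotspot was 2.61 kb (2609 bp) in AG replicate 1 and 3955 bp in AG replicate 2. It was 3305.5 bp in GG replicate 1 and 2577 bp in GG replicate 2. Members within 1 kb of such a hotspot numbered 158 (30.9%) and 255 (20.9%) in AG and 139 (22.7%) and 161 (31.9%) in GG. Within 100 bp there were 32 (6.25%) and 52 (4.26%) in AG and 20 (3.27%) and 21 (4.16%) in GG. Among low-scoring regions called in 1 library these shares were lower, 2.53% and 1.91% in AG and 2.32% and 2.57% in GG. At the other extreme, 5 (0.977%) and 14 (1.15%) members in AG and 9 (1.47%) and 9 (1.78%) in GG had no hotspot of another list within 50 kb. For low-scoring regions called in 1 library this share was 0.651% and 1.82% in AG and 1.43% and 0.897% in GG.

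Members lay closer to hotspots of other libraries than low-scoring regions called in 1 library did. The medians of low-scoring regions were 3408 and 4883 bp in AG and 3776 and 3479 bp in GG. The difference was -775 ± 210 bp (members minus low-scoring, SD, n = 4 libraries), with members closer in 4 of 4 libraries (exact sign-flip p = 0.125). It was -1406 bp without GG replicate 1 and -938 to -1111 bp without any 1 other library. It was -137 bp when hotspots within 1000 bp were merged, -2467.5 bp when a library had to cover 50% of a region and -447 ± 677 bp with the top 5% of scores, and the sign turned, to 263 bp, when only the upper 50% of each list by score was used. Some single libraries also turned where the mean did not: GG replicate 1 had 451 bp with the top 5% and 252 bp with lists of equal number, and GG replicate 2 had 731 bp with hotspots within 1000 bp merged.

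**Figure D4:**
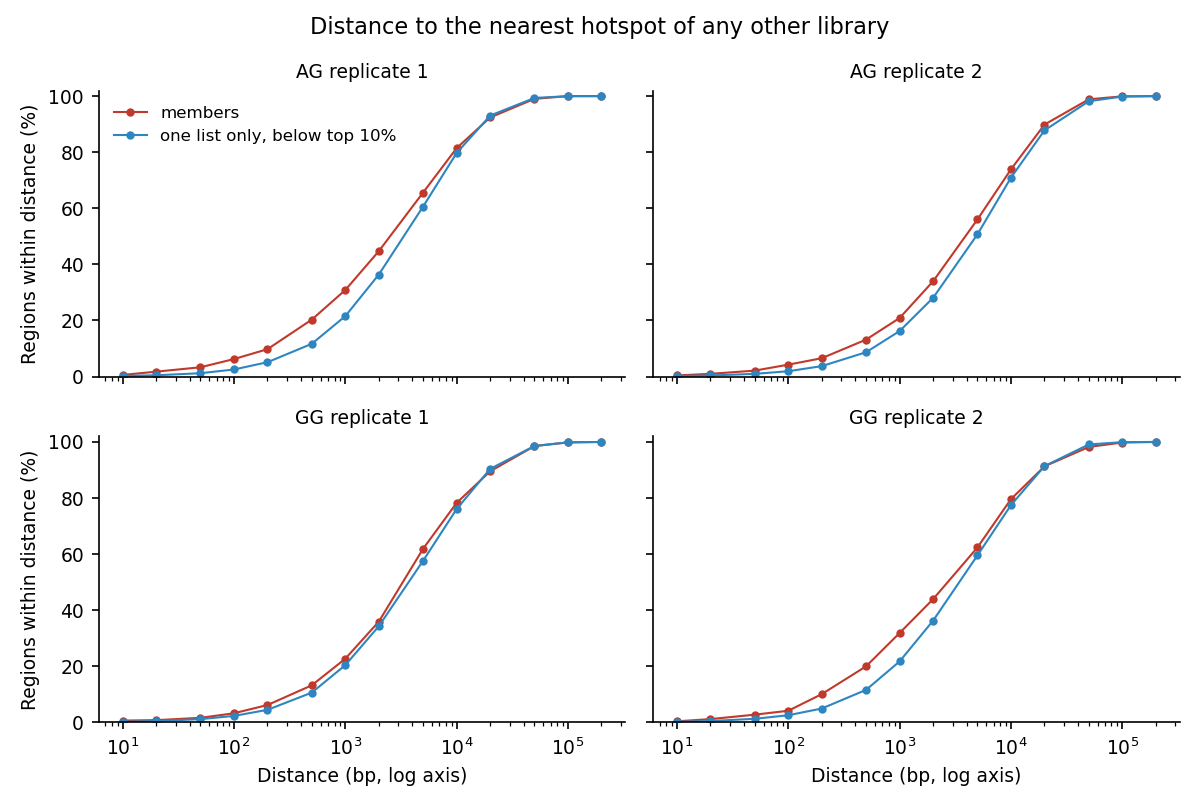
Curves give the percentage of regions with a hotspot of any other library within the distance on the log axis, for members and for low-scoring regions called in 1 list. At 1 kb the member curve is higher in each library, with 31.9% against 21.8% in GG replicate 2 and 22.7% against 20.4% in GG replicate 1.

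Distance to open chromatin common to all libraries separated narrow from wide members. Members under 300 bp had a median distance of 134 kb (133755 bp) in AG replicate 1, 129168 bp in AG replicate 2, 173964 bp in GG replicate 1 and 156173 bp in GG replicate 2 to the nearest region present in all 4 lists. Members of 1000 bp or more had medians of 26963 and 45004 bp in AG and 55835 and 30264.5 bp in GG. The difference, 108748 ± 18172 bp (SD, n = 4 libraries), had the same direction in 4 of 4 libraries (exact sign-flip p = 0.125). Narrow members also lay farther from such regions than narrow low-scoring regions called in 1 library, which had medians of 98857.5 and 95048 bp in AG and 97316 and 101504 bp in GG. For members of 1000 bp or more the order was the opposite, with low-scoring regions at 35690.5 and 63009 bp in AG and 59164 and 62498 bp in GG. These width classes were chosen after the values were seen.

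The most isolated members were spread over several chromosomes. In AG replicate 1 they were chromosome 9 from 32934833 to 32935149, 82.7 kb from any hotspot of another list, and chromosome 20 from 5474884 to 5475400, 60.8 kb away. In AG replicate 2 they were chromosome 17 from 47278988 to 47279246 (110.6 kb away) and chromosome 11 from 38729251 to 38729905 (95.7 kb away). In GG replicate 1 they were chromosome 13 from 41519961 to 41521010 (111.9 kb away, score 15.1) and chromosome 4 from 153097852 to 153097995 (98.5 kb away, score 14.9). In GG replicate 2 they were chromosome 1 from 106470462 to 106470712 (102.4 kb away) and chromosome 13 from 90832451 to 90832865 (98.8 kb away). Their widths ran from 144 to 1050 bp.

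The libraries were then compared by how often a hotspot of the other replicate lay within 10 kb of a member. For AG replicate 1, 55.5% of members had a hotspot of AG replicate 2 in this range, and 56.1% and 54.5% had one of GG replicates 1 and 2. For AG replicate 2 the share was 45.4% for AG replicate 1, and 49.9% and 47.1% for GG. For GG replicate 1 it was 56.5% for GG replicate 2, and 41.5% and 48.7% for AG replicates 1 and 2. For GG replicate 2 it was 56.0% for GG replicate 1, and 41.4% and 53.1% for AG.

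The same-kind share minus the mean other-kind share was 0.195 and -3.11 percentage points in AG and 11.4 and 8.81 in GG. Over all libraries it averaged 4.33 ± 6.91 (SD, n = 4, positive in 3 of 4, exact sign-flip p = 0.375). Lists differ in length, and a longer list has more hotspots within reach. With lists of equal number the values were 1.06 and 6.49 in AG and 7.16 and 2.09 in GG, positive in 4 of 4 (mean 4.20, p = 0.125, exact). Leaving out a library leaves its partner with no same-kind list, so only the 2 libraries of the other kind give a value. These were 1.73 and -2.81 in AG without GG replicate 1 (mean -0.539), -0.825 and -4.22 in AG without GG replicate 2 (mean -2.52), 6.96 and 3.82 in GG without AG replicate 1 (mean 5.39), and 14.8 and 13.2 in GG without AG replicate 2 (mean 13.99). The difference between AG and GG was not tested. Low-scoring regions called in 1 library gave nearly the same pattern, with 3.27 and -5.79 in AG and 9.85 and 12.3 in GG. Members differed from them by -0.569 ± 3.16 percentage points (SD, n = 4 libraries, exact sign-flip p = 0.75).

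Members within 10 kb of each other were counted, with no background share beside the counts. Members are sparse along the autosomes, so the counts are small in any case and nothing is read from them. Within 10 kb of a member of the other AG library were 14 members of each AG library, which was 2.73% of those of AG replicate 1 and 1.15% of those of AG replicate 2. In the GG pair 9 members of each library did so (1.47% and 1.78%), and in the 4 mixed pairs 2 to 10 did. Within 1 library, 8 and 18 members of AG and 4 and 2 of GG lay within 10 kb of another member of the same library.

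Members were also counted in 2683 windows of 1 Mb. Spearman correlations of member counts between libraries ran from -0.000465 for the GG pair to 0.0882 for the AG pair, and for all hotspots the same windows gave 0.772 to 0.882. Most windows held none (64.3% in AG replicate 2 and 79.9 to 83.0% in the other 3 libraries), and counts this sparse keep a correlation low, so nothing is read from it. The window with the most members of 1 library was chromosome 17 from 42000001 to 43000000, with 5 members of GG replicate 2, 2 of AG replicate 2 and 1 each of AG replicate 1 and GG replicate 1. It held 2 regions present in all 4 lists. Elsewhere no window had over 4 members of a library. The first windows with the highest count were chromosome 1 from 224000001 to 225000000 in AG replicate 1 (3 members), chromosome 8 from 27000001 to 28000000 in AG replicate 2 (4 members) and chromosome 1 from 110000001 to 111000000 in GG replicate 1 (3 members).

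Members were most frequent, per hotspot, where common open chromatin was sparse, which is partly so by construction. Windows were ranked by their number of regions present in all 4 lists and split into 4 classes of 670 or 671 windows. The ranking regions also count among the hotspots of each list but can never be members. Low-scoring regions called in 1 library were not counted by window class. In the sparsest class there were 13.3 and 18.4 members per 1000 hotspots in AG and 8.80 and 9.35 in GG. In the densest class there were 6.07 and 11.2 in AG and 4.46 and 4.75 in GG. Per Mb the order was the opposite, with 0.742 members of all libraries together in the sparsest class and 1.37 in the densest.

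Members and shared regions of the same band were distributed differently over the autosomes, a comparison chosen after the values were seen. Chromosome 17 held 25 of the members of AG replicate 1 (4.88%), 50 of AG replicate 2 (4.10%), 29 of GG replicate 1 (4.74%) and 21 of GG replicate 2 (4.16%), against 1.99%, 1.96%, 2.14% and 2.01% of shared regions in the same libraries. It thus took 2.07 to 2.45 times the share it had among shared regions. The difference was 2.44 ± 0.370 percentage points (SD, n = 4 libraries, higher in 4 of 4, exact sign-flip p = 0.125). Chromosome 17 also held more of the members than of the low-scoring regions called in 1 library, by 1.34 ± 0.554 percentage points (higher in 4 of 4, exact p = 0.125). Members also exceeded low-scoring regions in each library on chromosomes 1 and 20, and fell below them in each library on chromosomes 6 and 14. A direction shared by 4 of 4 libraries was thus not particular to chromosome 17. Mean differences from low-scoring regions were otherwise computed only for chromosomes 5, 16 and 19. On chromosomes 5 and 16 they were -0.0624 ± 1.23 and -0.0276 ± 0.632 percentage points.

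Chromosome 19 showed the opposite. It held 2.54% and 4.42% of members in AG and 2.61% and 2.57% in GG, against 8.83% and 8.99% of shared regions in AG and 7.42% and 7.67% in GG. The difference was -5.19 ± 0.764 percentage points (lower in 4 of 4, exact p = 0.125). Members differed from low-scoring regions on chromosome 19 by 0.532 ± 0.870 percentage points, less than the spread between libraries. Chromosome 16 had -2.47 ± 1.08 percentage points (members minus shared, lower in 4 of 4).

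Over all 20 autosomes, 9 (45%) had the same direction of members minus shared regions in all 4 libraries, 6 higher (30%) and 3 lower (15%). Those higher were chromosomes 2, 3, 5, 8, 17 and 18, and those lower were 10, 16 and 19. For low-scoring regions called in 1 library, the same comparison had 1 direction in 14 of 20 autosomes (70%), 9 higher (45%) and 5 lower (25%), so such a count is not a result about members. The count of 9 was 13 without AG replicate 1, 10 without AG replicate 2, 15 without GG replicate 1 and 14 without GG replicate 2, where 3 libraries suffice. On chromosome 5 GG replicate 1 stood apart, with 9.31% of members against 4.88%, 5.98% and 5.15% in AG replicates 1 and 2 and GG replicate 2. It was also highest there among low-scoring regions called in 1 library, with 8.07% against 4.52%, 6.15% and 6.83%. For all hotspots the shares were 6.52% against 4.20%, 5.56% and 5.87%, so its first place was not particular to members.

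**Figure D5:**
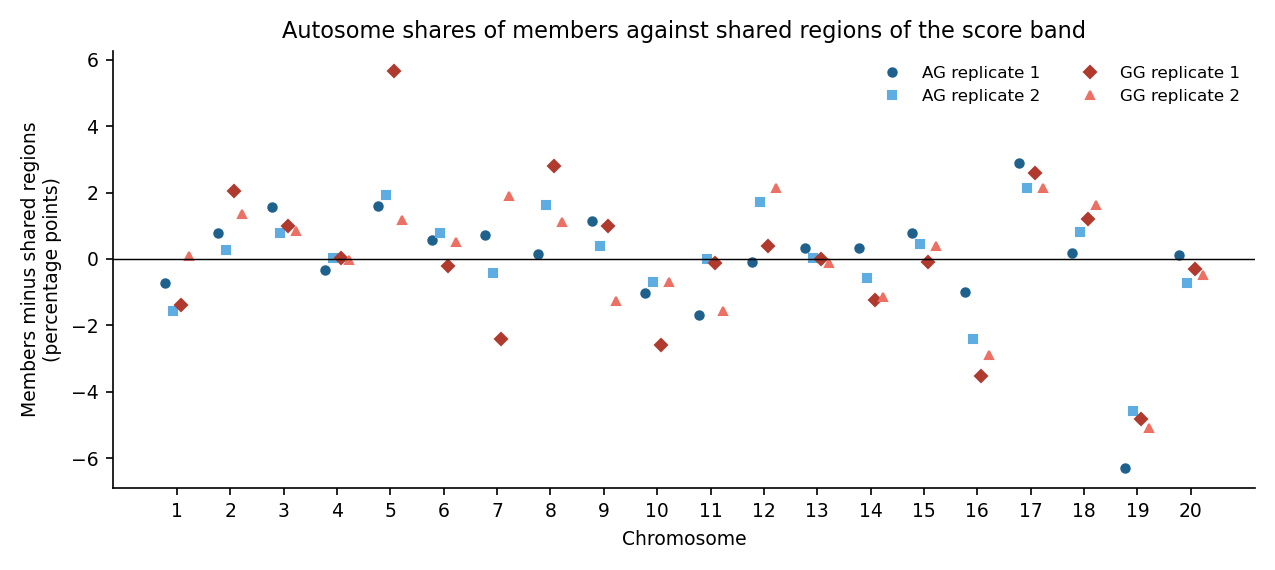
Points give, for each autosome and library, the share of members minus the share of shared regions of the same score band, in percentage points. Chromosome 17 lies above 0 and chromosome 19 below -4 in each of the 4 libraries, and GG replicate 1 is far above the others on chromosome 5.

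AG and GG members were also compared by their autosome shares. The AG and GG libraries did not overlap for 6 of 20 autosomes (30%), where the same count for all hotspots was 10 of 20 (50%), with 5 higher in AG (25%) and 5 higher in GG (25%). The members' count lay below that of the lists they come from. If group labels were arbitrary, 33.3% of autosomes would not overlap on average, so nothing is read from the members' count. Without 1 library, where non-overlap is more easily met, it was 10 to 13. The 4 autosomes with higher shares of members in both AG libraries (20%) were 10, 14, 16 and 20, and the 2 higher in both GG libraries (10%) were 2 and 18. Chromosome 16 had the widest gap in the first direction, with 4.69% and 3.85% in AG and 2.61% and 2.77% in GG (difference 1.58 percentage points). Chromosomes 10 and 14 had differences of 1.48 and 0.91, and chromosome 20 had 0.68. Over all hotspots, chromosomes 2, 10, 16 and 20 were apart in the same direction, with chromosome 16 at 4.86% and 4.55% in AG and 4.29% and 3.73% in GG. Among low-scoring regions called in 1 library, chromosomes 2, 10, 14, 16 and 20 were apart in the same direction, so these separations were not particular to members.

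In the opposite direction chromosome 5 had a difference of -1.80, but its AG and GG shares overlapped. Chromosome 2 held 7.23% and 5.98% of members in AG and 8.33% and 7.52% in GG (difference -1.33), and chromosome 18 held 1.56% and 2.38% in AG and 3.27% and 2.97% in GG (difference -1.15). The AG and GG shares of chromosome 18 overlapped over all hotspots and among low-scoring regions called in 1 library. Its members numbered only 8 and 29 in AG and 20 and 15 in GG, so its separation is not taken as particular to members. A two-sided exact permutation test of 2 libraries against 2 cannot give p under 0.333, which is the p of each non-overlapping autosome here.

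Median width averaged 631 ± 75.3 bp in AG and 604 ± 40.3 bp in GG (SD, n = 2 each, two-sided exact permutation p = 0.667). The difference of 27.25 bp was smaller than the spread between libraries. The groups did not overlap with the top 5% of scores (475.5 and 541 bp in AG, 376 and 415 bp in GG, difference 112.75 ± 38.1 bp) or with lists of equal number (659 and 625 bp in AG, 554 and 534.5 bp in GG, difference 97.75 ± 19.6 bp), both at an exact permutation p of 0.333. The difference was 204 and 264.5 bp without AG replicates 1 and 2 and -404 and -458 bp without GG replicates 1 and 2. Leaving out a library adds the regions shared only with it to its partner's members. The partner's median width was then 896 bp in AG replicate 2, 937.5 bp in AG replicate 1, 1129.5 bp in GG replicate 2 and 1177 bp in GG replicate 1. These values thus do not test how stable the AG minus GG width is. The share of members under 300 bp averaged 28.2 ± 5.65% in AG and 31.6 ± 1.75% in GG (exact permutation p = 0.667). The median distance to a region present in all 4 lists averaged 75577 ± 7041 bp in AG and 88999 ± 1836 bp in GG, without overlap (exact permutation p = 0.333). Low-scoring regions called in 1 library did not overlap either, with 68169 and 88945 bp in AG and 95569 and 98969 bp in GG.

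Ends of autosomes, taken as the 2 Mb next to the first or last hotspot of any list, held 31 and 50 members of AG (6.05% and 4.10%) and 24 and 17 of GG (3.92% and 3.37%). Both AG shares lay above both GG shares, with a difference of 1.43 percentage points (exact permutation p = 0.333). The difference was 2.73 without AG replicate 2, 2.40 without GG replicate 1, 1.04 without AG replicate 1 and 0.965 without GG replicate 2. In each of these cases every AG share lay above every GG share. The groups overlapped with the top 5% of scores (difference 0.639) and with the upper 50% of each list (1.06), while ends of 5 Mb gave 2.50. Shared regions of the band had 5.23% and 4.86% in AG and 4.69% and 4.44% in GG, and low-scoring regions called in 1 library had 4.34% and 3.86% in AG and 3.12% and 3.22% in GG, so AG lay above GG in these sets too. Members minus shared regions averaged -0.447 ± 0.860 percentage points over the 4 libraries (lower in 3 of 4, exact sign-flip p = 0.5), and -0.0229 without AG replicate 2. The difference was -1.88 with the top 5% of scores and -1.45 with the upper 50% of each list, lower in 4 of 4 libraries in both. Members minus low-scoring regions called in 1 library averaged 0.724 ± 0.722 percentage points (higher in 4 of 4, exact sign-flip p = 0.125).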

How the data were processed

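DNase-seq hotspots of 2 AG and 2 GG libraries were analysed, grouped by their titles. For each library the authors deposited a hotspot list with a score per hotspot, and its name states an FDR of 0.01. Which program called the hotspots, and on which scale it scored them, is not stated in these sources. Scores were used to rank and filter within 1 list. Where scores of different libraries stand side by side, it is unknown whether they are comparable. The submitters' processing notes name rheMac8 as build and, without saying what each did, Bowtie2, deepTools 3.3.1, SAMtools and Trim Galore. Depth is unknown.

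Lists were merged with no gap allowed, and thresholds were the scores at 10% and 1% of each list's rows, rounded down. Distances run from edge to edge. Width is that of the library's own highest-scoring hotspot in a region. Library values were compared by exact two-sided permutation (2 against 2) or sign-flip over 4 libraries. Named regions are, per library, the 3 with the highest score, the 2 widest, the 2 most isolated and the 1 Mb window with the most members. Alternatives were other score bands, merging distances, overlap, shortened lists, minimum widths, neighbour distances, left-out libraries and a replicate block; a minimum of 300 bp, merged widths and the lowest 50% as comparison were added after the data were seen. Members and comparisons were chosen with earlier results of these data known. Finding members and distances was tested on simulated lists. Python 3.11.15, numpy 2.4.6, pandas 2.3.3 and matplotlib 3.10.9 were used. Genes and sequence were not analysed here.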

Additional observations from a re-analysis of the deposited data

Results flagged for a closer look

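Chromosome X lies outside the rule that chose the members, but the same score band and the same absence from other lists were also met there. Such regions numbered 7 in AG replicate 2, 27 in GG replicate 1 and 44 in GG replicate 2, which says only that they are not 0. AG replicate 1 had 3 chromosome X regions in the band and none called in it alone, too few to say anything of that library. The lists held few chromosome X regions at all, 17 and 48 in AG and 82 and 117 in GG. The regions called in 1 library were 7 of 17 in AG replicate 2 (41.2%), 27 of 43 in GG replicate 1 (62.8%) and 44 of 56 in GG replicate 2 (78.6%) of the chromosome X regions in the score band, against 16.2%, 7.43% and 6.77% on the autosomes. The median widths of these chromosome X regions called in 1 library were 242, 235 and 236.5 bp. The shares above cover all widths. Among autosomal band regions of 100 bp to under 300 bp, 78.5%, 73.7% and 75% were called in 1 library in the same 3 libraries. The difference from autosomes was not tested.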

How the results depend on the processing

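Members numbered 2850 in all, 1027 with the top 5% of scores, 9799 with the top 20% and 1302 with the upper 50% of every list, and 2184 to 3417 without 1 library. Their mean share of the band was 9.83%, against 17.2% when a library had to cover 50% of a region, 16.1% with the top 20%, and 10.5 to 15.4% without 1 library. The AG minus GG difference in number was 308, 793.5 with the top 20% and -411 to 1032.5 without 1 library, and that in share 5.47 percentage points, with -2.55 to 14.02 without 1 library (-0.197 without GG replicate 1). Its sign turned for number and share only without GG replicate 1 or GG replicate 2 (number -107.5 and -411). Members minus shared width kept its direction in all 15 alternatives run (-2293 to -713 bp). Members minus low-scoring width (-139 bp) was -443 bp with the upper 50% of every list, -304 bp with the top 5%, -234 bp with lists of equal number, -73.6 bp against the lowest 50% of every list and -66.25 bp for hotspots of at least 100 bp, turned to 211 bp with 50% coverage, 178 bp with the top 20% and 95.5 bp for hotspots of at least 300 bp, and ran from -12.7 to 93.8 bp without 1 library (1.83 and 75.7 bp without AG replicate 2 and GG replicate 1). The AG minus GG width (27.25 bp) was 112.75 bp with the top 5% and 97.75 bp with lists of equal number, turned to -126 bp with 50% coverage, -3.5 bp with the top 20%, and ran from -458 to 264.5 bp without 1 library (-404 bp without GG replicate 1). Distance to another library (-775 bp) was -2467.5 bp with 50% coverage, -447 bp with the top 5% and -137 bp with merging within 1000 bp, and turned with the upper 50% of every list (263 bp). The same-kind neighbourhood difference ran from -2.52 to 13.99 without 1 library and was negative without GG replicate 1 (-0.539) or GG replicate 2 (-2.52), where only the AG libraries give a value. Members minus shared regions at autosome ends (-0.447) was -1.88 with the top 5% and -1.45 with the upper 50%, and turned to 0.022 with the top 20% and 0.167 for hotspots of at least 300 bp. AG and GG autosome shares did not overlap for 10 to 13 autosomes without 1 library, and members minus shared regions had 1 direction for 10 to 15. Fewer libraries make such counts and membership itself easier by construction. Without 1 library, the median member width rose most in its partner of the same kind. That partner gains the regions shared only with the left-out list. The cause of the other changes was not tested. With the replicate number as a block, the AG minus GG width was 27.25 bp (exact sign-flip p = 1) and the end share 1.43 percentage points (exact p = 0.5, the smallest 2 pairs can give); same-numbered libraries did not deviate together (r = -0.0937 across windows), so the numbers are not taken as pairs. No test here could pass 0.05, so p-values say nothing about stability. Without read counts, depth cannot be separated from absence of a call.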
